A study of Mus musculus with 6 samples.

Results

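The amino acid transporter genes examined here were the protein-coding genes whose symbols place them in 7 solute carrier families, Slc1, Slc3, Slc6, Slc7, Slc36, Slc38 and Slc43. They were 60 of the 56748 genes listed in the deposited table, after 1 gene of the Slc7 family was left out by the rule that chose them. RNA had been sequenced from cultures of primary mouse osteocytes, the cells embedded in the bone matrix, with 3 libraries from WT mice and 3 labelled cKO, short for conditional knockout. The latter came from mice with floxed *Gsdmd* alleles and a Cre recombinase driven by the *Dmp1* promoter, which is active in osteocytes and late osteoblasts, and were given as *Gsdmd*-deficient. *Gsdmd* encodes gasdermin D, which forms membrane pores during inflammatory cell death. The cells had been released from marrow-flushed long bones by trypsin, collagenase and EDTA and then grown in culture, and the methods give an age of 7 weeks for this isolation. They name C57BL/6J as the strain of the WT mice used for stimulation, and the strain background of the mice labelled cKO is not given in the sources used here. Cultures of both genotypes were stimulated with lipopolysaccharide (LPS, 10 ng/mL, 3 h) and then with aluminum hydroxide (20 µg/mL, 3 h), which triggers the inflammasome. No unstimulated library was analysed here, so that every difference is one between stimulated libraries of the 2 labels. The labels do not say whether the 3 libraries of a genotype came from separate animals or cultures, and p-values therefore measure the spread between these libraries, which may be technical.

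Amino acids cross membranes on carriers that differ in their substrates and in what drives them. Slc1, Slc6 and Slc38 members mostly draw on the sodium gradient and Slc36 members on protons. Of the Slc43 members, *Slc43a1* and *Slc43a2* let large neutral amino acids pass down their gradient. Many Slc7 members are light chains that reach the cell surface only when bound to the heavy chain encoded by *Slc3a2*, where they swap one amino acid for another. In bone, these carriers supply the glutamine, proline and leucine used for matrix synthesis, and in inflammatory cells they supply arginine for nitric oxide synthesis.

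In 3 respects the libraries departed from their labels or from the methods, which name osteocytes and sex-matched mice, and these bear on all values that follow. *Gsdmd*, the deleted gene, was counted 609, 699 and 549 times in WT and 885, 937 and 1045 times in the libraries labelled cKO. Its level was 13.9 ± 0.339 counts per 1000000 (CPM) in WT and 22.5 ± 1.33 CPM in the libraries labelled cKO (SD, n = 3 each), a rise of 0.69 on the log2 scale with an edgeR adjusted p of 2.27e-06. The count pools all exons, so the deleted exons were not seen separately, and genotype is given below as labelled. *Xist*, an RNA made from the silenced X chromosome in females, had 4, 0 and 2 counts in WT and 48762, 44817 and 51216 in the libraries labelled cKO. The Y-linked gene *Ddx3y* had 4785, 5455 and 4033 counts in WT and 0 in each library labelled cKO, where *Eif2s3y*, *Kdm5d* and *Uty* were also at 0. Sex and genotype therefore cannot be told apart in these libraries. Osteocyte markers were scarce. *Sost* and *Dkk1* had 0 counts in all 6 libraries, *Dmp1* had 0, 0 and 4 counts in WT and 2, 6 and 4 in the libraries labelled cKO, and 3 of the 9 listed markers had enough counts to be tested. The most abundant of them, *Pdpn*, made up most of a summed level of 241 ± 7.78 CPM in WT and 200.0 ± 3.73 CPM in the libraries labelled cKO (SD, n = 3 each).

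Markers of macrophages moved with genotype. All 15 tested markers of the 16 listed rose at least 2-fold, with a median log2 fold change of 3.15. The summed level of all 16 was 1209, 1309 and 1361 CPM in the WT libraries and 6478, 6745 and 6796 CPM in the libraries labelled cKO. The most abundant, *Lyz2*, rose from 986 ± 57.1 to 4518 ± 114 CPM (SD, n = 3 each), and *Cx3cr1* was near 0 throughout, with at most 2 counts in a WT library and at most 11 in a library labelled cKO. Among the chondrocyte markers 7 of 9 tested rose and 2 fell, where 20.1% and 19.2% of all tested genes did so. *Comp*, the most abundant by mean CPM over all 6 libraries, the measure used for each of these lists, was at 567 ± 26.4 CPM in WT and 2117 ± 75.2 CPM in the libraries labelled cKO. *Col9a1* and *Col9a2* were at 0 in every WT library, while *Col2a1*, the main cartilage collagen, fell from 1428 ± 77.7 to 798 ± 47.5 CPM, and *Col10a1* also fell (SD, n = 3 each). Of 6 tested osteoblast markers 2 rose and 4 fell, and *Spp1*, the most abundant, was at 8495 ± 646 CPM in WT and 5442 ± 32.5 CPM in the libraries labelled cKO (SD, n = 3 each). Of 7 tested osteoclast markers, led by *Nfatc1*, 2 rose and 3 fell, and of 8 fibroblast markers, led by *Col3a1*, 4 rose and 3 fell. Of 5 tested endothelial markers, *Kdr*, the most abundant over all libraries though not in WT, rose by 2.04 on the log2 scale, while *Emcn*, *Tek*, *Cdh5* and *Pecam1* were called lower, and the median log2 fold change was -3.08. All 6 listed summed to 6.91 CPM in WT and 6.50 CPM in the libraries labelled cKO. Both tested neutrophil markers, led by *Camp*, rose, and the list summed to 6.35 and 10.5 CPM. No lymphocyte or erythroid marker had enough counts to be tested, led by *Cd4* and *Alas2*. The part of these cell types and of sex in the differences between transporters was not tested, and in these bulk samples fewer cells of a type and less RNA per cell cannot be told apart.

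Library totals lay between 39566835 and 49734046 counts, and 37 of the 60 transporter genes had enough counts to be tested among 17146 genes. Of the other 23, 10 had no count in any library, and 13 had at most 24 counts in any library. A gene that passes the filter through the genotype in which it is high is more likely to differ, and the counts below cover the tested genes alone. A gene is said to have risen or fallen where edgeR's quasi-likelihood test gave a Benjamini-Hochberg adjusted p below 0.05, and to be called higher or lower where the difference was also at least 2-fold.

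In the libraries labelled cKO, 18 of the 37 tested transporters rose, 8 fell and 11 did neither. Among all tested genes 20.1% rose and 19.2% fell, against 48.6% and 21.6% of the transporters. Called higher were 4 transporters, or 10.8%, where the share among all genes was 6.56%. Called lower were 3, or 8.11%, against 4.64%. Among the called genes, *Slc6a19*, *Slc7a3* and *Slc43a1* had a library under 10 counts in the group where they were lower. They may have passed the filter only through the other group, which bears on these shares. The 3 libraries labelled cKO lay above all WT libraries for 19 transporters, or 51.4%, and below them for 11, or 29.7%, where the shares among all genes were 25.3% and 23.9%. The median log2 fold change was 0.31 over the tested transporters and 0.0077 over all tested genes.

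**Figure D1:**
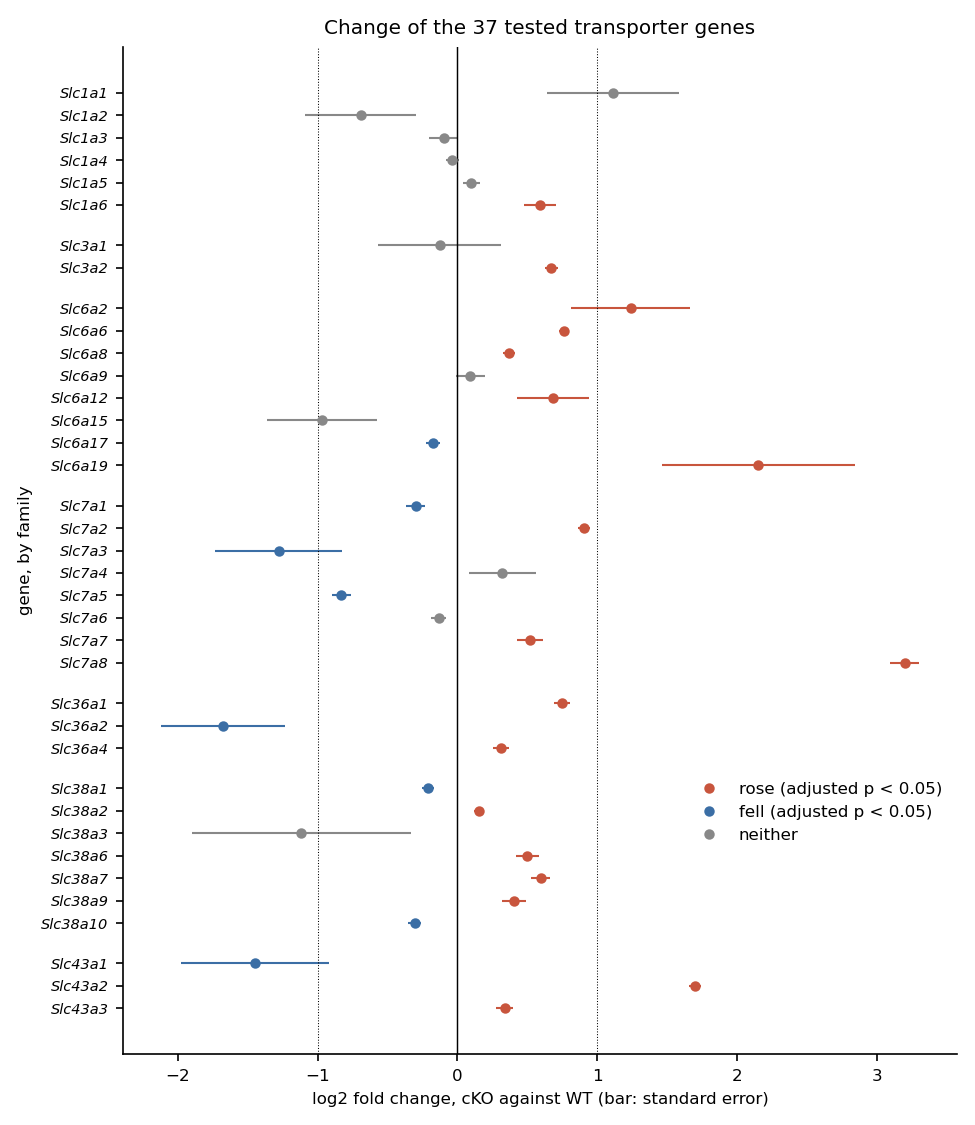
Log2 fold change of each of the 37 tested transporter genes, libraries labelled cKO against WT (x axis), with genes grouped by family on the y axis. Points are edgeR estimates, bars are standard errors, dotted lines mark a 2-fold difference, and colours separate the 18 genes that rose, the 8 that fell and the 11 that did neither.

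Summed over all 60 genes, the transporters took up 3028, 2941 and 3022 CPM in the WT libraries and 4109, 4029 and 4106 CPM in the libraries labelled cKO. The groups did not overlap, and the mean was 1.36 times as high in the libraries labelled cKO. Of the difference of 1084 CPM, *Slc7a2* made up 428 CPM, *Slc6a6* 268 CPM and *Slc43a2* 180.1 CPM, in reads, which also scale with gene length. The Slc7 family summed to 672 ± 19.1 CPM in WT and 1156 ± 38.7 CPM in the libraries labelled cKO, while the Slc38 family summed to 1094 ± 28.4 and 1073 ± 18.9 CPM and the Slc1 family to 218 ± 7.86 and 221 ± 4.89 CPM (SD, n = 3 each).

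Levels of different genes were compared per kb of gene length. In WT the highest level was that of *Slc38a10*, at 61.8 ± 4.13 CPM per kb, followed by *Slc7a2* at 53.9 ± 2.50 and *Slc38a2* at 52.8 ± 0.540 CPM per kb, whose libraries overlapped each other. *Slc6a6*, *Slc3a2*, *Slc1a4* and *Slc6a8* came next, each with every library below every library of the gene before. In the libraries labelled cKO the order was *Slc7a2* at 101 ± 4.17, *Slc6a6* at 77.5 ± 0.331, *Slc3a2* at 67.6 ± 3.44, *Slc38a2* at 58.9 ± 1.32 and *Slc38a10* at 50.0 ± 1.28 CPM per kb, with no overlap between neighbours. *Slc6a8* and *Slc1a4* followed and overlapped each other. *Slc38a10* thus moved from the first place to the fifth, and *Slc43a2* and *Slc7a8* entered directly behind these 7 genes.

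**Figure D2:**
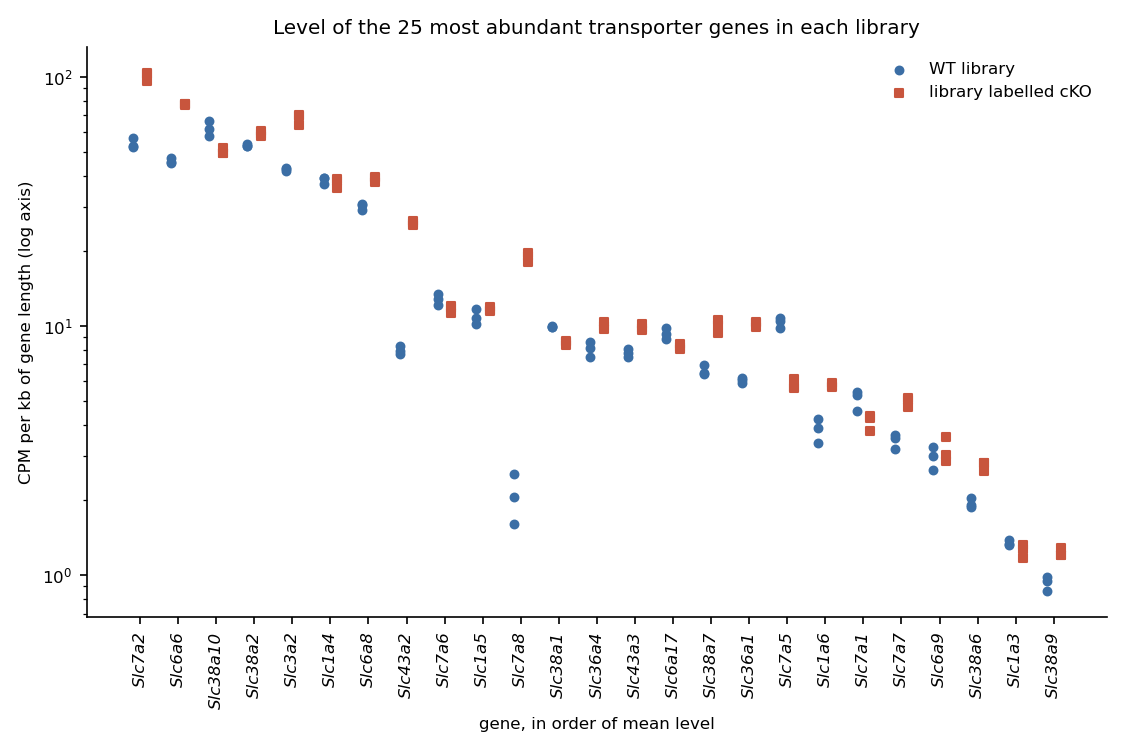
Level of the 25 most abundant transporter genes in each library, in CPM per kb of gene length on a log axis, with genes on the x axis in order of their mean over all 6 libraries. Each point is 1 library, circles for WT and squares for libraries labelled cKO. *Slc7a8* and *Slc43a2* show the widest gaps, and *Slc1a4*, *Slc1a5* and *Slc6a9* overlap.

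The heavy chain and its light chains did not move in 1 direction. *Slc3a2*, which carries the light chains to the cell surface, lies on chromosome 19 of mm39 from 8684246 to 8700733. Its level was 152, 147 and 150.0 CPM in WT and 247, 244 and 225 CPM in the libraries labelled cKO. All 3 of the latter lay above WT, and the gene rose by 0.67 on the log2 scale (standard error 0.045, edgeR adjusted p 1.13e-09). *Slc3a1*, the other heavy chain, known from kidney and intestine, had 17 to 56 counts in a library and a log2 fold change of -0.13 (edgeR adjusted p 0.853).

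Among the light chains, *Slc7a8* (LAT2), an exchanger of large and small neutral amino acids, rose most. It lies on the minus strand of chromosome 14 of mm39 from 54959666 to 55019403. Its counts were 361, 509 and 494 in WT and 3786, 3888 and 4328 in the libraries labelled cKO. In CPM the WT libraries were at 8.02, 10.3 and 12.7, against 90.0, 97.8 and 95.3 in the libraries labelled cKO. The groups were far apart, and the spread in WT, 10.3 ± 2.35 CPM (SD, n = 3), was wide for its level. The rise was 9.17-fold, or 3.20 on the log2 scale (standard error 0.10, edgeR adjusted p 5.65e-14), and it stayed between 3.03 and 3.36 when single libraries were left out.

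*Slc7a5* (LAT1), an exchanger that brings in leucine and other large neutral amino acids, went the other way. Its level was 36.4, 38.6 and 39.9 CPM in WT and 22.7, 20.9 and 21.0 CPM in the libraries labelled cKO. The groups did not overlap, and the gene fell by 0.83 on the log2 scale (standard error 0.069, edgeR adjusted p 2.16e-08). *Slc7a7* (y+LAT1), which exchanges cationic for neutral amino acids, rose from 11.5 ± 0.773 to 16.4 ± 0.736 CPM (SD, n = 3 each), a log2 fold change of 0.52 with an edgeR adjusted p of 2.40e-04. *Slc7a6* (y+LAT2), of the same activity, was at 58.4 ± 2.78 CPM in WT and 53.3 ± 1.70 CPM in the libraries labelled cKO (SD, n = 3 each), with an edgeR adjusted p of 0.0584. Per kb of gene length, *Slc7a5* stood at 10.3 ± 0.484 and *Slc7a8* at 2.06 ± 0.470 CPM per kb in WT, and at 5.81 ± 0.271 and 18.8 ± 0.796 CPM per kb in the libraries labelled cKO (SD, n = 3 each). *Slc7a5* was thus the higher of the pair in every WT library and *Slc7a8* the higher in every library labelled cKO.

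**Figure D3:**
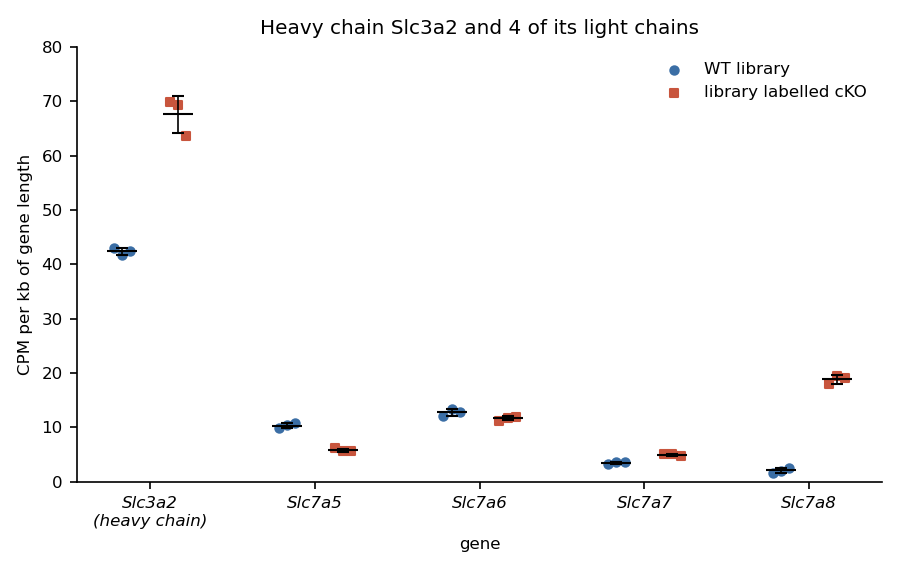
Level of the heavy chain gene *Slc3a2* and of 4 light chain genes, in CPM per kb of gene length (y axis, from 0), by gene (x axis). Points are single libraries, horizontal lines are means and bars are SD (n = 3); *Slc7a5* lies lower and *Slc7a8* higher in the libraries labelled cKO than in WT.

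The facilitators of the Slc43 family were led by *Slc43a2* (LAT4), which passes leucine and other large neutral amino acids without exchange. It lies on the plus strand of chromosome 11 of mm39 from 75422520 to 75468401. Its level was 83.5, 77.1 and 79.7 CPM in WT and 254, 266 and 261 CPM in the libraries labelled cKO. With no overlap, it rose 3.25-fold, or by 1.70 on the log2 scale (standard error 0.045, edgeR adjusted p 4.69e-15), and had the smallest p-value of all transporters tested. A long noncoding RNA on the other strand, *Gm45606*, overlaps its span and had 1154 counts over all libraries against 43780 for *Slc43a2*. *Slc43a3*, which is known as a carrier of purine bases, rose by 0.34 on the log2 scale (edgeR adjusted p 1.54e-04). *Slc43a1* (LAT3), a relative of *Slc43a2* with similar substrates, was called lower but rested on few counts, 29, 40 and 36 in WT and 8, 22 and 6 in the libraries labelled cKO. Its log2 fold change was -1.45 (standard error 0.53, edgeR adjusted p 0.0387). With single libraries left out the adjusted p was between 0.0546 and 0.173 and no longer passed, except without replicate 2 of the libraries labelled cKO. Without that library the log2 fold change was -2.28 (edgeR adjusted p 0.00802), and without replicate 3 of the libraries labelled cKO it was -1.09.

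The stretches of 250 bases before the transcription starts of these called genes are shown because they are where the DNA elements of stress and nutrient responses would be looked for. The sequences are those of RefSeq on GRCm38.p6, an earlier build than that of the counts, read 5′ to 3′ on the strand of the gene. *Slc43a2* had 2 starts, at chr11:75531444-75531693 and chr11:75531862-75532111 on the plus strand. *Slc7a8* was read at chr14:54781887-54782136 on the minus strand and *Slc43a1* at chr2:84840073-84840322 on the plus strand. Capitals mark matches to a searched motif.
Slc43a2, first start: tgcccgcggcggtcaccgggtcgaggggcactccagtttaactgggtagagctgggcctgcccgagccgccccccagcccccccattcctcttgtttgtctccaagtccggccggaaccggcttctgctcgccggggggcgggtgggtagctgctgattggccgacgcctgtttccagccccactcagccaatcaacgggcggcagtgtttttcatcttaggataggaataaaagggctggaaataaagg
Slc43a2, second start: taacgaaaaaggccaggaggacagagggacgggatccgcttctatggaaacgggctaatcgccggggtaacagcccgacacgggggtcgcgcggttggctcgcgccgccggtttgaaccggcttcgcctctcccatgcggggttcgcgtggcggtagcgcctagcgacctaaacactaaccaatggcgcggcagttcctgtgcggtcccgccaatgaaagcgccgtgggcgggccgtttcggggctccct
Slc7a8: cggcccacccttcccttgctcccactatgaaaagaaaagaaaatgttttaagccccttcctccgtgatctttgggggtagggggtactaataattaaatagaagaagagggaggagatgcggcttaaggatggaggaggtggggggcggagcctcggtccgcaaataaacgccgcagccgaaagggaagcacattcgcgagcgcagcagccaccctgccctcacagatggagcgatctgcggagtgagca
Slc43a1: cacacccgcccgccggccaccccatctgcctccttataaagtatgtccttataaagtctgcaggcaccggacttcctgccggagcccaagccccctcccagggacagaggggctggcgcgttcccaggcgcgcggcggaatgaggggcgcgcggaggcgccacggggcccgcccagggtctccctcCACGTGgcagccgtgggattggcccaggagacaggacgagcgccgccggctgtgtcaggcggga

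A total of 3 motifs were searched on both strands, from 250 bases before to 50 bases after each start. These were TGATGNAA, the core of the element bound by ATF4 with its C/EBP partners, TGANTCA, the element of AP-1, and ACGTG, shared by hypoxia response elements and E-boxes. Of the 60 transporters, 42 had an entry. TGATGNAA was in 3 of the 42 and in 4.51% of all genes, TGANTCA in 8 and in 8.97%, and ACGTG in 17 and in 21.8%. The 42 members had 63 starts, and all 27025 genes with an entry had 32851. A member thus had more stretches per gene in which to match, and the counts were not adjusted for this. Among the 13 genes with an entry that rose, TGATGNAA was found for *Slc7a7*, TGANTCA for *Slc38a7* and *Slc6a12*, and ACGTG for *Slc1a6*, *Slc36a1*, *Slc38a7*, *Slc3a2* and *Slc7a7*. Among the 4 with an entry that fell, TGANTCA was found for *Slc38a10*, *Slc6a17* and *Slc7a1*, and ACGTG for *Slc38a10* and *Slc43a1*. Neither start of *Slc43a2* and no stretch of *Slc7a8* held any of these letters. *Slc43a1* held ACGTG on both strands, at overlapping positions that make up the E-box letters in capitals, 64 and 63 bases before the start. These matches are descriptions of letters and not of sites in use.

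The cationic carriers of the Slc7 family bring arginine, lysine and ornithine into cells. *Slc7a2* (CAT2), known for feeding inducible nitric oxide synthase in macrophages, lies on chromosome 8 of mm39 from 41315433 to 41375345. Its level was 518, 477 and 481 CPM in WT and 945, 876 and 939 CPM in the libraries labelled cKO. It rose 1.87-fold, or by 0.90 on the log2 scale (standard error 0.042, edgeR adjusted p 7.87e-12), just under the 2-fold limit for a call. *Slc7a1* (CAT1), the carrier found in most cells, fell from 58.7 ± 5.33 to 47.7 ± 3.48 CPM (SD, n = 3 each), a log2 fold change of -0.30 with an edgeR adjusted p of 0.00201. *Slc7a3* (CAT3), on the X chromosome, had 40, 33 and 49 counts in WT and 22, 9 and 18 in the libraries labelled cKO. It was called lower at a log2 fold change of -1.28 (standard error 0.45, edgeR adjusted p 0.0338). The adjusted p no longer passed without WT replicate 1 (0.0666), WT replicate 3 (0.141), or replicate 2 (0.133) or 3 (0.0850) of the libraries labelled cKO. These carriers thus did not share a direction. *Slc7a4*, a relative without a settled substrate, had 78 to 133 counts per library and a log2 fold change of 0.32 (edgeR adjusted p 0.324).

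The sodium- and chloride-coupled Slc6 family was led by *Slc6a6*, the carrier of taurine. Its level was 383, 381 and 397 CPM in WT and 655, 653 and 659 CPM in the libraries labelled cKO. The libraries of a genotype lay close together, and the gene rose by 0.76 on the log2 scale (standard error 0.036, edgeR adjusted p 8.91e-12). *Slc6a8*, the carrier of creatine and a gene of the X chromosome, rose from 157 ± 4.32 to 202 ± 4.56 CPM (SD, n = 3 each), a log2 fold change of 0.37 with an edgeR adjusted p of 1.25e-06. *Slc6a17*, a carrier of neutral amino acids on vesicles of neurons, fell by 0.17 on the log2 scale (edgeR adjusted p 0.00977, and 0.0531 without replicate 1 of the libraries labelled cKO). *Slc6a9*, a carrier of glycine, had overlapping libraries and an edgeR adjusted p of 0.537. *Slc6a12*, the carrier of betaine, rose by 0.69 on the log2 scale with 54 to 122 counts in a library, at an edgeR adjusted p of 0.0438. With libraries left out in turn its adjusted p rose to between 0.0602 and 0.214, except without replicate 2 of the libraries labelled cKO.

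Both Slc6 genes called higher had few counts. *Slc6a2*, the carrier of norepinephrine, had 22, 13 and 28 counts in WT and 40, 51 and 55 in the libraries labelled cKO, a log2 fold change of 1.24 (standard error 0.43, edgeR adjusted p 0.0283). *Slc6a19*, the neutral amino acid carrier of intestine and kidney, had 14, 0 and 10 counts in WT and 28, 24 and 55 in the libraries labelled cKO, a log2 fold change of 2.15 (standard error 0.69, edgeR adjusted p 0.0195). The groups did not overlap for either gene. The log2 fold change of *Slc6a19* was 1.52 without WT replicate 2, 2.75 without WT replicate 1 and 3.19 with limma-voom. With single libraries left out, the edgeR adjusted p of *Slc6a2* no longer passed without WT replicate 1 (0.0655), WT replicate 2 (0.106), or replicate 2 (0.0950) or 3 (0.0856) of the libraries labelled cKO, and that of *Slc6a19* without the last of these (0.133). *Slc6a15*, another neutral amino acid carrier, had 34 to 56 counts per WT library and 16 to 32 per library labelled cKO, with an edgeR adjusted p of 0.0608.

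The sodium-coupled Slc38 family carries glutamine, alanine and other small neutral amino acids. Of its 7 tested members 4 rose and 2 fell, where the shares over all tested genes were 20.1% and 19.2%. *Slc38a2* (SNAT2), whose transcription is known to rise when amino acids run short, rose from 467 ± 4.78 to 521 ± 11.7 CPM (SD, n = 3 each), a log2 fold change of 0.16 with an edgeR adjusted p of 0.00181. *Slc38a1* (SNAT1), of similar substrates, fell from 171 ± 1.15 to 148 ± 2.70 CPM (SD, n = 3 each), a log2 fold change of -0.21 with an edgeR adjusted p of 4.40e-04. These differences in opposite directions were small, and the libraries of the genotypes did not overlap for either gene. *Slc38a10* fell from 397 ± 26.5 to 321 ± 8.22 CPM (SD, n = 3 each), a log2 fold change of -0.31 with an edgeR adjusted p of 3.42e-05. *Slc38a7* and *Slc38a9* are known at the lysosome, where *Slc38a7* exports glutamine and *Slc38a9* senses arginine for mTORC1, the kinase complex that couples growth to amino acids. *Slc38a7* rose by 0.60 (edgeR adjusted p 1.11e-06) and *Slc38a9* by 0.40 (edgeR adjusted p 8.10e-04) on the log2 scale, and *Slc38a6* rose by 0.50 (edgeR adjusted p 8.02e-05). *Slc38a3*, at 0 to 16 counts per library, had a log2 fold change of -1.12 (edgeR adjusted p 0.292).

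The Slc36 family, whose members are mostly coupled to protons, moves mainly small neutral amino acids out of lysosomes or into cells. *Slc36a1* (PAT1) was at 34.0, 33.0 and 34.9 CPM in WT and at 58.1, 57.7 and 55.5 CPM in the libraries labelled cKO. It rose by 0.75 on the log2 scale (standard error 0.055, edgeR adjusted p 4.00e-09), with no overlap between genotypes. *Slc36a4* (PAT4) rose from 52.9 ± 3.65 to 65.5 ± 2.17 CPM (SD, n = 3 each), a log2 fold change of 0.31 with an edgeR adjusted p of 2.64e-04. *Slc36a2* (PAT2), at 46, 108 and 50 counts in WT and 31, 18 and 10 in the libraries labelled cKO, was called lower at a log2 fold change of -1.68 (standard error 0.44, edgeR adjusted p 0.00575). Its WT libraries were spread widely, and without WT replicate 2 the adjusted p was 0.0547.

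The Slc1 family holds carriers of glutamate and of small neutral amino acids. Of its 6 tested members 1 rose and none fell, where 20.1% and 19.2% of all tested genes did so. *Slc1a4* (ASCT1), a carrier of alanine, serine and cysteine, was at 151 ± 4.53 CPM in WT and 147 ± 6.57 CPM in the libraries labelled cKO (SD, n = 3 each), a log2 fold change of -0.037 (standard error 0.046, edgeR adjusted p 0.569). *Slc1a5* (ASCT2), the main carrier of glutamine in many dividing cells, was at 45.4 ± 3.32 and 48.6 ± 1.02 CPM (SD, n = 3 each), a log2 fold change of 0.098 (standard error 0.060, edgeR adjusted p 0.222). Libraries overlapped for both genes, and the glutamate carrier *Slc1a3* had a log2 fold change of -0.099 (edgeR adjusted p 0.486). *Slc1a6*, another glutamate carrier, rose by 0.59 on the log2 scale (edgeR adjusted p 3.71e-04), from 8.24 ± 0.919 to 12.4 ± 0.218 CPM (SD, n = 3 each). The glutamate carriers *Slc1a1* and *Slc1a2* had at most 44 and 59 counts in a library, with log2 fold changes of 1.11 (edgeR adjusted p 0.0747) and -0.69 (edgeR adjusted p 0.189).

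Of the 7 called transporters, 5 had a mean level under 5 CPM, as had 12 of the 37 tested, and *Slc7a8* and *Slc43a2* were the 2 calls at higher levels. Reads of genes on opposite strands cannot be told apart without the strand setting of the counting, which is not given in the sources used here. This touches *Slc7a7*, which had 3616 counts over all libraries and overlaps *Oxa1l* with 7850, and *Slc3a1*, which had 199 and overlaps *Prepl* with 10451. It also touches *Slc6a9* with 4094 counts, which overlaps *B4galt2* with 7374, *Slc7a4* with 588, which overlaps *P2rx6* with 846, and *Slc1a1* with 171, which overlaps *Spata6l* with 195.

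Other genes that handle amino acids were read beside the transporters. Of 18 tested carriers outside the 7 families, 7 rose and 3 fell, with a median log2 fold change of 0.12. Among all tested genes 20.1% rose and 19.2% fell. *Slc16a10* (TAT1), a facilitator of aromatic amino acids, rose from 3.09 ± 0.381 to 18.1 ± 1.26 CPM, *Mfsd12*, a carrier of cysteine into lysosomes and related organelles, from 22.4 ± 1.42 to 78.0 ± 2.98 CPM, and *Slc15a3*, a carrier of peptides and histidine at the lysosome, from 25.6 ± 2.26 to 71.6 ± 0.905 CPM (SD, n = 3 each). Their log2 fold changes were 2.54, 1.80 and 1.48, and their edgeR adjusted p-values were 1.56e-11, 9.06e-14 and 2.54e-12. Of the 37 tested enzymes of amino acid synthesis and breakdown, 12 rose and 14 fell, with a median of 0.0095. *Ass1*, which starts the return of citrulline to arginine, fell from 149 ± 11.9 to 28.6 ± 4.32 CPM, a log2 fold change of -2.37 (edgeR adjusted p 1.92e-13). *Glul*, the enzyme that makes glutamine, rose by 0.98 on the log2 scale (edgeR adjusted p 1.74e-11), and *Bcat1*, which starts the breakdown of leucine, isoleucine and valine, fell by 0.91 (edgeR adjusted p 2.17e-10).

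*Nos2*, the inducible nitric oxide synthase, was also looked up for its link to the carrier *Slc7a2*, a choice made after its values had been seen. It was at 1139, 1190.4 and 1235 CPM in WT and at 979.6, 968 and 993 CPM in the libraries labelled cKO, a log2 fold change of -0.28 (edgeR adjusted p 5.87e-06). The genotypes did not overlap, and the gene was abundant in both.

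Among all tested genes 20.1% rose and 19.2% fell, which is the comparison for the lists that follow. Of the 19 tested genes of the response to amino acid starvation, 3 rose, 9 fell and 7 did neither, with a median log2 fold change of -0.14. *Atf4*, the transcription factor at its centre, fell by 0.38 on the log2 scale (edgeR adjusted p 2.97e-06). *Vldlr*, a lipoprotein receptor, fell by 1.14, *Nupr1*, a chromatin-associated stress protein, by 1.21 and *Stc2*, a secreted glycoprotein, by 1.96 on the log2 scale, with edgeR adjusted p-values of 2.63e-12, 2.45e-11 and 7.58e-10. The 3 that rose were the transcription factors *Atf3* and *Cebpb* and the secreted factor *Gdf15*, by 1.36, 0.58 and 1.01 on the log2 scale, with edgeR adjusted p-values of 4.79e-09, 3.41e-08 and 6.49e-05. The enzymes that load amino acids onto tRNA in the cytosol had 0 of 19 tested members rising and 13 falling, with a median of -0.19 and 18 of 19 below zero. *Cars* fell by 0.48, *Gars* by 0.44 and *Sars* by 0.38 on the log2 scale, with edgeR adjusted p-values of 8.45e-07, 9.77e-07 and 1.72e-06. None of the 19 reached 2-fold. Of the 36 genes through which mTORC1 senses amino acids, 10 rose and 4 fell, with a median of 0.085. The shares among all tested genes were 20.1% and 19.2%. *Fnip2*, a partner of folliculin, rose by 1.38 on the log2 scale (edgeR adjusted p 2.07e-13), and *Sesn1* and *Sesn3*, of the sestrin family of mTORC1 inhibitors, rose by 0.79 and 0.38 (edgeR adjusted p 9.10e-07 and 5.00e-06). *Sesn2*, listed with the starvation genes, had a log2 fold change of -0.16 (edgeR adjusted p 0.0502). *Atf4*, *Atf3*, *Cebpb*, *Gdf15* and *Sesn2* were singled out after their values had been seen.

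**Figure D4:**
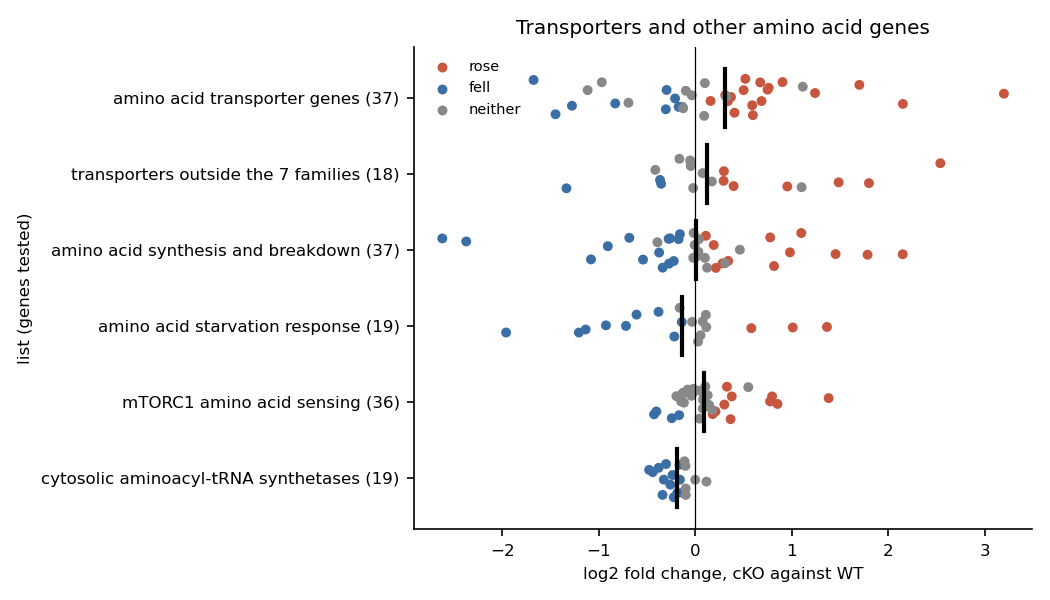
Log2 fold change, libraries labelled cKO against WT (x axis), of each tested gene in 6 lists (y axis, number tested in parentheses). Points are genes coloured by whether they rose, fell or did neither, spread vertically only to be visible, and the black bar is the list's median, highest for the transporters at 0.31 and lowest for the tRNA synthetases at -0.19.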

How the data were processed

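RNA-seq of 3 WT and 3 cKO libraries was analysed. The authors trimmed 150 bp paired-end reads from a directional kit, aligned them to GRCm39 (mm39) with HISAT2 2.0.5, counted them on genes with featureCounts (1.55.0-p3 in the submitters' processing notes) and deposited raw counts and gene lengths in bases without normalization. From the deposited counts, edgeR 4.0.16 (R 4.3.3) gave CPM scaled by TMM, log2 fold changes and p-values (filterByExpr, glmQLFit without robust estimation, glmQLFTest, genotype as the only term), and p-values were adjusted over the 17146 tested genes. The biological coefficient of variation was 8.36%. Library totals, between 39566835 and 49734046 counts, put 3 counts at 0.0605 to 0.0773 CPM, which covers counting error only. Of the counts from 1 to 10 in a library, between 63.4% and 65.7% were even numbers. Mates of 1 read pair may thus have been counted separately, low counts may stand for fewer molecules, and halved counts were one alternative.

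The genes named were *Gsdmd*, the sex-linked genes, the called transporters, the 12 with the highest level per kb and 10 chosen for their roles. Named too were the 3 genes with the smallest p-value in each pathway list and the most abundant gene of each marker list. Other transporters were added to account for every family, whether they rose, fell, did neither or were untested. Other marker genes were named after their values had been seen. The members, lists and tests were chosen with earlier results of these data known. Of 20 tRNA synthetase symbols, 19 were matched, 16 of them through RefSeq synonyms. Protein sequences were not used here, and 1 gene of the lists is not reported here by name.

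The procedure was tested on simulated data for this comparison, with counts drawn for 17146 genes, of which 16823 passed the filter. With the 2-fold limit applied, it recovered 86 of 95 genes changed by 2 and 102 of 105 changed by 3 on the log2 scale. It called 1 unchanged gene. Smaller changes were not simulated, and the rule for rising or falling without the 2-fold limit was not checked in this way. Alternatives were DESeq2 1.42.0, limma-voom (limma 3.58.1), other scalings and filters, a replicate block and leaving out each library.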

Additional observations from a re-analysis of the deposited data

How the results depend on the processing

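Over 14 alternatives the number of transporters that rose stayed between 15 and 18 and the number that fell between 6 and 9, against 18 and 8. Over all genes, 2942 to 3670 rose and 2796 to 3398 fell, against 3445 and 3285, with 15134 to 27649 genes tested. The transporters' median log2 fold change lay between 0.13 with no filter on low counts and 0.33 with library totals only, against 0.31. It was 0.20 without replicate 3 of the libraries labelled cKO. Leaving out each library in turn gave 15 to 17 that rose, 6 to 7 that fell, 2 to 4 called higher and 1 to 2 called lower, against 4 and 3. The 2 called higher were left without replicate 3 of the libraries labelled cKO, where *Slc6a2* and *Slc6a19* had adjusted p-values of 0.0856 and 0.133. The number called lower was 1 without WT replicate 1, 2 or 3 and without replicate 3 of the libraries labelled cKO, and also 1 with at least 10 counts required in every library, since that filter left *Slc7a3* and *Slc43a1* untested. Without WT replicate 2, *Slc36a2* was among those lost, with a log2 fold change of -1.31. The calls of *Slc7a8* and *Slc43a2* held under all 14. For the 23 transporters named as called, most abundant or chosen for their roles, 302 values under the alternatives kept their direction and side of the threshold, 15 no longer passed it, 2 newly passed it (both *Slc7a6*, adjusted p 0.0448 with RLE size factors and 0.0240 without WT replicate 1) and 0 changed sign. Among the other transporters, *Slc6a9* ranged from -0.0038 to 0.16 and *Slc3a1* from -0.41 to 0.24 on the log2 scale and so changed sign, *Slc6a17* was lost without replicate 1 of the libraries labelled cKO (adjusted p 0.0531), and *Slc6a15* fell with at least 10 counts in every library (adjusted p 0.0298) and with counts halved (adjusted p 0.0422). *Slc1a1* was also called higher with limma-voom (adjusted p 0.0413), with at least 10 counts in every library (adjusted p 0.0420) and without WT replicate 1 (adjusted p 0.0154), and with no filter on low counts *Slc6a5* was also called lower (adjusted p 0.00173). With replicate number as a block 17 rose, 8 fell, 4 were called higher and 3 lower, and *Slc6a12* was lost (adjusted p 0.0602). With limma-voom *Slc6a12* was lost as well (adjusted p 0.0506). Deviations correlated at -0.0055, 0.0023 and -0.010 between libraries of the same number and from -0.011 to 0.017 between the others. Values this alike cannot show whether libraries of the same number shared a preparation, which was not tested. No scaling moved the median of all genes by more than 0.1 on the log2 scale. The cause of these changes was not tested except where stated. The members under 5 CPM, which include 5 of the 7 called, rest on few counts, and whether depth limits their calls was not tested.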

Other observations

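Of the carriers outside the 7 families, the others that rose were *Slc17a5*, which exports sialic acid from lysosomes, from 18.6 ± 0.922 to 36.0 ± 1.69 CPM, *Ctns*, which exports cystine, from 19.8 ± 0.767 to 24.2 ± 0.918 CPM, *Slc66a1*, which exports cationic amino acids, from 14.3 ± 0.763 to 17.5 ± 1.00 CPM, and *Slc25a13*, the mitochondrial exchanger of aspartate and glutamate, from 8.81 ± 0.359 to 11.6 ± 0.913 CPM (SD, n = 3 each). The 3 that fell were *Sfxn1*, a mitochondrial carrier of serine, *Slc25a15*, a mitochondrial carrier of ornithine, and *Slc17a7*, the vesicular carrier of glutamate, with log2 fold changes of -0.37, -0.35 and -1.34.

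Among the untested transporters, *Slc6a5*, a carrier of glycine in neurons, had 24, 8 and 0 counts in WT and 0 in each library labelled cKO. *Slc38a4* had 6 to 10 counts in every library. *Slc7a15* had 6 counts in replicate 3 of the libraries labelled cKO and none in the others.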
